A study of Sus scrofa with 6 samples.

Results

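The SR proteins are a family of splicing factors, and their mRNAs were measured on Affymetrix porcine arrays in eggs of adult and of prepubertal pigs. The family was taken as all probe sets whose single gene symbol in the platform annotation was SRSF1, SRSF2, SRSF3, SRSF4, SRSF5, SRSF6, SRSF7, SRSF9, SRSF10 or SRSF11, which gave 26 probe sets of 10 genes, of 23999 probe sets in all (a probe set is the group of short probes that together report 1 transcript). The 10 genes were not covered evenly: SRSF6 had 6 probe sets, SRSF10 and SRSF11 5 each, SRSF1 3, SRSF9 2, and SRSF2, SRSF3, SRSF4, SRSF5 and SRSF7 1 each. The family was selected on the readout itself: it was chosen by the signals of 1 probe set each of SRSF4 and SRSF7, which had passed the comparison of prepubertal with adult eggs in these same arrays, so the differences between the groups are given here as a description and without p-values.

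Samples were 3 arrays of oocytes from adult sows, labelled developmentally competent, and 3 of oocytes from prepubertal gilts, labelled developmentally incompetent. All oocytes came from follicles of 2 to 6 mm, were matured in culture for 42 to 44 h, stripped of cumulus cells with hyaluronidase and vortexing, and had extruded a first polar body, so that both groups were at metaphase II. Breed, number of animals and number of oocytes behind an array are not stated by the labels. The arrays are named as biological replicates, and the standard deviations below describe the spread between these 3 samples a group.

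An SR protein binds short exonic sequences of a pre-mRNA through 1 or more RNA recognition motifs and recruits the splicing machinery through a tail rich in arginine and serine. Kinases of the SRPK and CLK families phosphorylate that tail, which sets where in the cell the protein lies and whether it is active. Several members also accompany finished mRNAs to the cytoplasm and take part in their export, translation or decay. A metaphase II egg has no intact nucleus and hardly transcribes, so its mRNAs are mostly a stock made earlier, which is later translated or degraded. RNA was captured by its poly(A) tail, so the signal of such a stored mRNA depends on its amount and on the length of its tail, and these cannot be told apart here.

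Oocyte markers were bright on all arrays and markers of the cells around the egg were dim. All 7 measured oocyte markers were in the brighter part of the table, led by KPNA7, an importin of oocytes, at a mean signal of 14376 in adult and 14096 in prepubertal eggs, and ZP4, an egg coat protein, at 2636 and 2544. Of 15 measured cumulus and granulosa genes the brightest probe set was of INHBA, an inhibin and activin subunit, at 126 and 100.3. VCAN, a matrix proteoglycan, followed at 49.4 and 50.7, and INHA at 39.7 and 41.6. HSD3B1 had 34.9 and 35.9 on 1 probe set and 16.1 and 22.5 on another. The brighter LHCGR probe set had 13.8 and 24.5, a log2 difference of 0.52 as deposited. From the dim end of the list, FSHR, STAR, AMH and CYP11A1 lay between 2.10 and 7.53 in both groups. Of the list's 26 probe sets, 8 were higher in prepubertal eggs as deposited. The summed signal of that list was 351 to 434 on adult and 351 to 402 on prepubertal arrays. Theca and stroma genes summed to 140 to 188 and 99.4 to 144, with the collagens COL1A2, at 45.7 and 47.2, and COL3A1, at 41.2 and 16.2, the brightest. Endothelial genes summed to 176 to 196 and 144 to 194, with PECAM1, a junction protein, brightest at 40.8 to 51.5 for its 2 leading probe sets. Blood and immune genes summed to 294 to 503 and 168 to 404, most of it HBB, a globin, at 296 and 214, followed by PTPRC, a leukocyte phosphatase, at 21.5 and 10.5. The sums of all 5 marker lists, oocyte markers at 19988 to 21124 and 18061 to 21270 included, overlapped between the groups. Single markers still differed. Among the 7 oocyte markers, GDF9 had mean signals of 360 in adult and 231 in prepubertal eggs, a log2 difference of −0.58 as deposited. ZP3 had −0.31 and PADI6 −0.26, while 2 of the 7 were higher, BMP15 at 0.18 and ZP2 at 0.07. Most of the oocyte sum was KPNA7, so that sum says little about the others. All 6 blood and immune probe sets had the lower mean in prepubertal eggs as deposited, as did 8977 of the 12000 tested probe sets. Only 1 of the 6, that of HBB, was bright enough to be tested. COL3A1 had a log2 difference of −0.85 and, after quantile normalization of the arrays, −0.74, without overlap in either setting (limma adjusted p = 0.214 and 0.384). The part of these markers in the differences below was not tested. In bulk RNA, fewer cells of a type and less RNA per cell cannot be told apart.

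The arrays did not share a common level. The 2% trimmed mean signal was 123 to 161 on adult and 106 to 132 on prepubertal arrays, and over the 12000 tested probe sets the log2 difference, prepubertal minus adult, had a median of −0.20 with the values as deposited. Quantile normalization, which gives all arrays 1 distribution, brought it to −0.01. Every difference of the SR family is therefore given as deposited and once normalized in this way, and is to be read against those medians. All log2 differences are on the log2(signal + 16) scale, and an SE after a difference comes from the limma fit across the whole table.

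SRSF4 and SRSF7 were the members that stood highest in prepubertal eggs, SRSF1 came next without passing the threshold, and the other members spread from SRSF9 Ssc.5220.1.S1_at, ranked 837 of 12000 for the size of the increase as deposited and 419 once normalized, down to SRSF5, ranked 11207 and 11454. Of the 26 probe sets, 18 were bright enough to be tested, meaning that their mean over the 6 arrays was at or above the median of the table, a signal of about 16.03. For all 18 the mean of each group also reached that level, so none entered through 1 group alone. Past a limma adjusted p of 0.05 over the whole table there were 2 higher and 0 lower, against 0.0333% of all tested probe sets higher and 0.442% lower. Once normalized the same 2 passed, against 0.025% higher and 0.0917% lower. That count is what chose the family, and nothing is read from it.

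**Figure D1:**
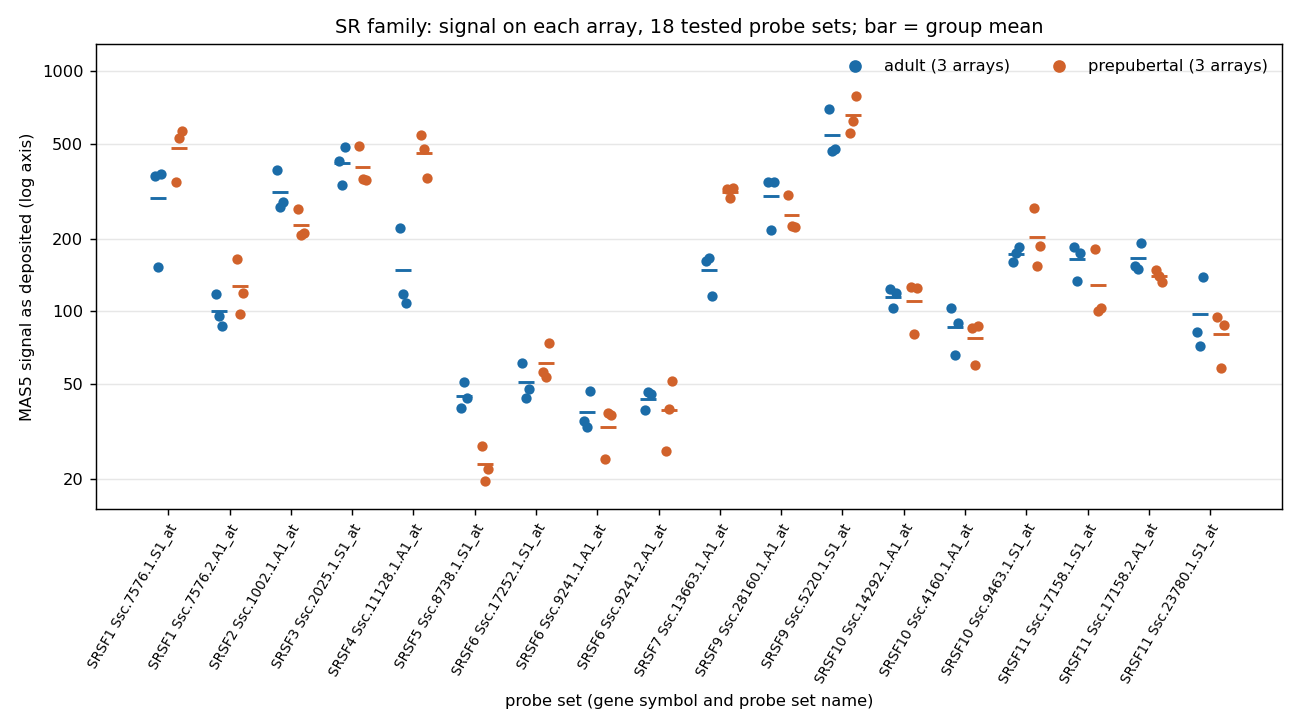
MAS5 signal as deposited (log axis) for each of the 18 tested SR family probe sets, with 1 point for each array (adult blue, prepubertal orange) and a bar at the mean of 3 arrays. The prepubertal points of SRSF4 and SRSF7 lie above all adult points, those of SRSF5, SRSF2 and SRSF11 Ssc.17158.2.A1_at lie below them, and the other groups overlap.

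SRSF4, SRSF5 and SRSF6 are close relatives that carry a canonical and a degenerate RNA recognition motif ahead of a long arginine-serine tail. The single SRSF4 probe set (Ssc.11128.1.A1_at) read 221, 118 and 109 on the adult arrays and 540.5, 473 and 361 on the prepubertal ones. Every prepubertal array was above every adult array, and adult replicate 1 was the highest of its group. The mean was 149 ± 62.6 in adult and 458 ± 90.8 in prepubertal eggs (SD, n = 3 each), with a log2 difference of 1.56 ± 0.26 (SE), or 2.96-fold, as deposited and 1.81 ± 0.21, or 3.52-fold, once normalized. Among all 12000 tested probe sets it ranked 1 for the size of the increase in both settings.

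SRSF5, the second of these relatives, stood on the other side. Its probe set (Ssc.8738.1.S1_at) read 39.4, 50.8 and 43.4 on adult and 27.5, 19.5 and 21.9 on prepubertal arrays. The groups did not overlap, but all 6 values were dim, so the added constant of 16 shrinks the difference. The mean was 44.5 ± 5.78 against 23.0 ± 4.11, a log2 difference of −0.63 ± 0.25 as deposited and −0.52 ± 0.24 once normalized, with no overlap there either. It was the lowest of the 18 differences in both settings, and it did not pass the threshold.

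SRSF6, the third, was measured by 3 tested probe sets that differed from one another. Ssc.17252.1.S1_at read 60.9, 43.6 and 47.3 on adult and 55.9, 53.0 and 74.0 on prepubertal arrays, a log2 difference of 0.21 ± 0.24 as deposited and 0.37 ± 0.20 once normalized. Only after that normalization did its groups not overlap. Ssc.9241.1.A1_at and Ssc.9241.2.A1_at had differences of −0.15 ± 0.25 and −0.14 ± 0.25 as deposited and −0.01 ± 0.23 and 0.01 ± 0.24 once normalized, with overlapping groups throughout. The SRSF6 probe sets thus showed no shared direction, and none was near the SRSF4 value.

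SRSF3 and SRSF7 are the short members with a single RNA recognition motif, to which SRSF7 adds a zinc knuckle, and both serve as adaptors that hand mRNAs to the export receptor NXF1. The SRSF7 probe set (Ssc.13663.1.A1_at) read 162, 166 and 116 on adult and 324, 297 and 326 on prepubertal arrays. The prepubertal arrays lay within a narrow band above every adult array. The mean was 148 ± 28.0 against 315 ± 16.2, a log2 difference of 1.03 ± 0.23, or 2.04-fold, as deposited and 1.28 ± 0.19, or 2.43-fold, once normalized, where it ranked 14 and 9 among the 12000.

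SRSF3 (Ssc.2025.1.S1_at) did not share this pattern. It read 424, 336 and 485 on adult and 487, 355 and 352 on prepubertal arrays, with 1 prepubertal array above and the others among the adult values. Its log2 difference was −0.06 ± 0.23 as deposited and 0.22 ± 0.15 once normalized, and the groups overlapped both ways.

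SRSF1 and SRSF9 form another related pair with a canonical and a degenerate recognition motif and a short arginine-serine tail. SRSF1, the first SR protein to be purified as a splicing factor, also acts in translation and in nonsense-mediated decay. Its brightest probe set (Ssc.7576.1.S1_at) read 366, 153 and 372 on adult and 347, 530 and 563 on prepubertal arrays. Adult replicate 2 was well below the rest of its group and prepubertal replicate 1 lay among the adult values, so the groups overlapped. The mean was 297 ± 125 against 480 ± 116, a log2 difference of 0.73 ± 0.29, ranked 68 of 12000, and it did not pass the threshold.

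Once normalized that SRSF1 probe set had a log2 difference of 1.01 ± 0.28, ranked 34, and its lowest prepubertal array, at 339, stood just above the highest adult one, at 334. A second SRSF1 probe set (Ssc.7576.2.A1_at) read 118, 96.0 and 87.1 on adult and 166, 97.7 and 119 on prepubertal arrays, with differences of 0.28 ± 0.24 and, once normalized, 0.49 ± 0.19. Both tested SRSF1 probe sets were thus on the higher side in both settings, by different amounts, and the second fell to 0.10 as deposited without prepubertal replicate 1 and reached 0.44 without prepubertal replicate 2.

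SRSF9 was read by 2 bright probe sets that pointed in opposite directions as deposited. Ssc.5220.1.S1_at read 694, 467 and 474 on adult and 553, 620.3 and 791 on prepubertal arrays, a log2 difference of 0.27 ± 0.23. Ssc.28160.1.A1_at read 347, 218 and 346 on adult and 307, 227 and 225 on prepubertal arrays, a difference of −0.24 ± 0.24. Once normalized the values were 0.55 ± 0.18 and 0.04 ± 0.16, and the groups overlapped for both probe sets in both settings.

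SRSF2, also known as SC35, is the member whose antibody marks nuclear speckles, and it has a single recognition motif. Its probe set (Ssc.1002.1.A1_at) read 387, 273 and 285 on adult and 267, 208 and 213 on prepubertal arrays. As deposited all 3 prepubertal arrays were below the adult ones, by −0.42 ± 0.23 on the log2 scale. Once normalized the groups overlapped and the difference was −0.16 ± 0.15, so whether its groups overlapped depended on the normalization.

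SRSF10 and SRSF11 are less typical members: SRSF10 turns into a general repressor of splicing when it loses its phosphates, as in mitosis or heat shock, and SRSF11 has an arginine-serine region of its own kind. The brightest SRSF10 probe set (Ssc.9463.1.S1_at) read 160, 176 and 186 on adult and 269, 154 and 187 on prepubertal arrays, a log2 difference of 0.18 ± 0.24 as deposited. Once normalized it was 0.42 ± 0.19 and the groups no longer overlapped, with 185.7 the highest adult and 186.2 the lowest prepubertal value. Without prepubertal replicate 1 the difference as deposited was −0.03. The other tested SRSF10 probe sets, Ssc.14292.1.A1_at and Ssc.4160.1.A1_at, had differences of −0.07 ± 0.23 and −0.12 ± 0.24 as deposited and 0.15 ± 0.18 and 0.06 ± 0.19 once normalized.

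All 3 tested SRSF11 probe sets were below 0 as deposited, with log2 differences of −0.36 ± 0.25 for Ssc.17158.1.S1_at, −0.21 ± 0.23 for Ssc.17158.2.A1_at and −0.22 ± 0.26 for Ssc.23780.1.S1_at. For Ssc.17158.2.A1_at, at 155, 150 and 193 on adult and 149, 140 and 132 on prepubertal arrays, the groups did not overlap. Once normalized they did, and the differences were −0.13 ± 0.19, 0.04 ± 0.18 and −0.04 ± 0.23.

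**Figure D2:**
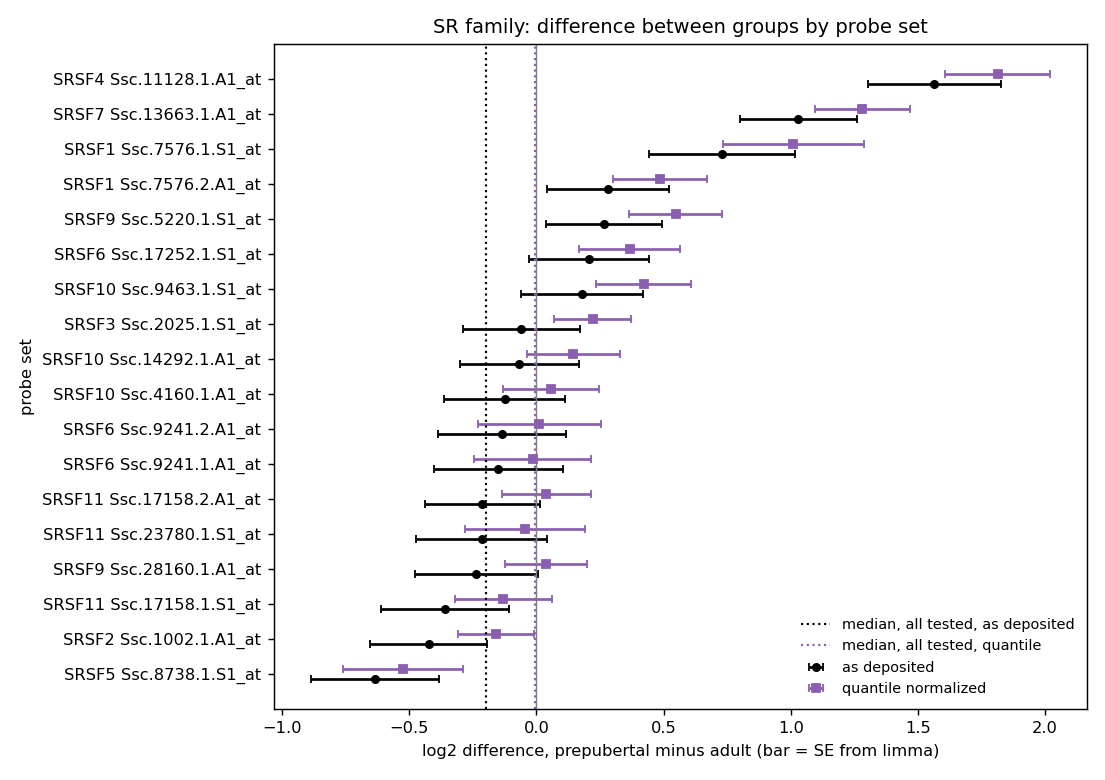
Log2 difference, prepubertal minus adult, of each tested SR family probe set, with its SE from limma, as deposited (black circles) and once normalized (purple squares); dotted lines mark the medians of all 12000 tested probe sets, −0.20 and −0.01. SRSF4 at 1.56 and 1.81 and SRSF7 at 1.03 and 1.28 stand to the right of the other members, and SRSF5 at −0.63 and −0.52 is at the left end.

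As a group the 18 tested probe sets had a median log2 difference of −0.10 as deposited, against −0.20 for all tested probe sets, and 0.10 once normalized, against −0.01. In both settings the family median was thus about 0.1 above that of the table. The family's median level as deposited had an SD of 0.22 between replicate arrays. That SD includes shifts of whole arrays, so it does not measure the spread of the 0.1. Once normalized, the level was 7.14, 7.22 and 7.07 on adult and 7.54, 7.30 and 7.32 on prepubertal arrays, SRSF4 and SRSF7 included. With only the brightest probe set of each of the 10 genes, SRSF4 and SRSF7 included, the family median was 0.39 above that of the table as deposited and 0.40 once normalized. SRSF4 and SRSF7 are the values that chose the family, and the median of this smaller set without them was not computed. By count, 7 of 18 had higher values as deposited, where 25.2% of all tested probe sets had, and 13 of 18 once normalized, where 48.9% had. Without SRSF4 and SRSF7 the other 16 had medians of −0.13 and 0.05, with 5 and 11 higher. Groups without overlap were found as deposited for 2 higher and 3 lower members, against 1.81% and 17.1% of all tested probe sets. Once normalized there were 6 higher and 1 lower, against 7.54% and 8.77%. Because the family was proposed with this comparison known, these counts describe it and are not a test of it.

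Probe sets of the same gene did not always point the same way. Of the 5 genes with more than 1 tested probe set, 2 (SRSF1 and SRSF11) had all of them on 1 side of 0 as deposited and 3 (SRSF6, SRSF9 and SRSF10) had both signs. Once normalized SRSF1, SRSF9 and SRSF10 were on 1 side and SRSF6 and SRSF11 had both signs. SRSF4 and SRSF7 each rest on 1 probe set, so for these genes no further probe set bears on the difference. The within-group SD of the tested members, on the log2 scale, had a median of 0.26, against 0.28 for all tested probe sets.

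With 1 array left out the SRSF7 call was mostly lost and that of SRSF4 was lost in 1 case, while the size of both differences moved little. Leaving out each array in turn gave a log2 difference of 1.39 to 1.86 for SRSF4 and of 0.88 to 1.11 for SRSF7 as deposited. SRSF4 passed the threshold in 5 of these 6 fits and not without adult replicate 2; since passing it with all arrays is what chose these members, a pass with 5 arrays supports nothing. SRSF7 passed in 1, the fit without prepubertal replicate 1, and not without adult replicate 1, 2 or 3 or prepubertal replicate 2 or 3. As deposited, 3 to 35 probe sets of the whole table passed in the fits that lost a call, in place of 57. Once normalized, both calls were kept and lost in the same fits. SRSF1 Ssc.7576.1.S1_at ranged from 0.34 without adult replicate 2 to 0.94 without prepubertal replicate 1, and passed only in that last fit, where 658 probe sets of the whole table passed in place of 57. Of the 18 tested members, 6 changed sign in at least 1 of these fits as deposited (SRSF3, SRSF6 Ssc.9241.2.A1_at, SRSF11 Ssc.23780.1.S1_at and all 3 of SRSF10), and 6 did once normalized.

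**Figure D3:**
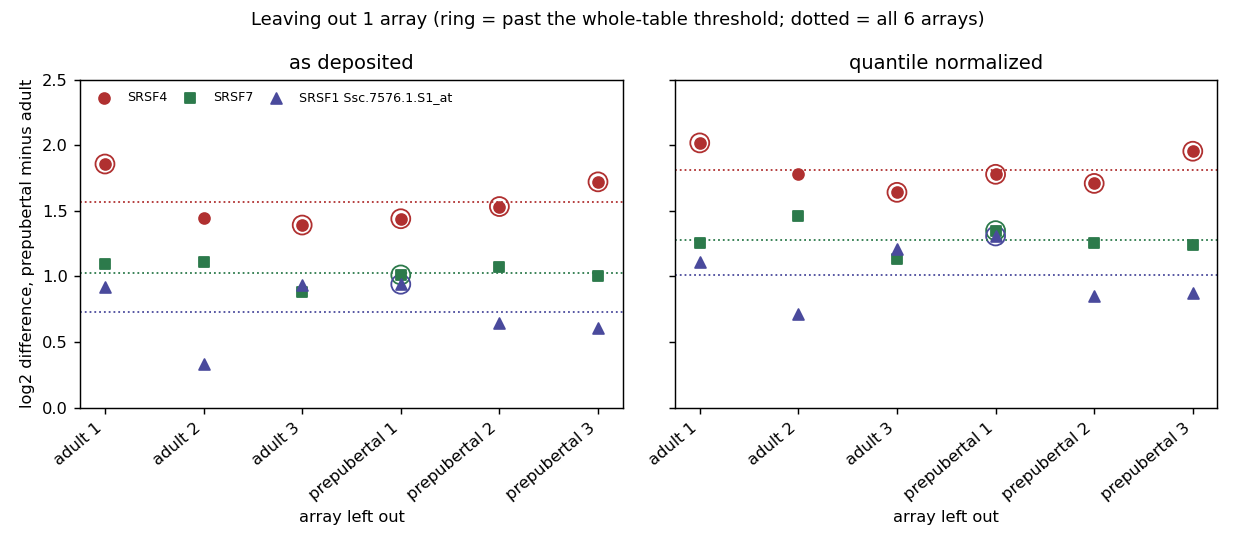
Log2 difference, prepubertal minus adult, of SRSF4 (circles), SRSF7 (squares) and SRSF1 Ssc.7576.1.S1_at (triangles) when the array named on the x axis is left out, as deposited (left) and quantile normalized (right); dotted lines show the value with all 6 arrays and rings mark values past the whole-table threshold. SRSF4 stays between 1.39 and 1.86 in the left panel and has a ring in 5 of 6 fits, and SRSF7 stays between 0.88 and 1.11 with a ring in 1.

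The 8 family probe sets below the filter were near background and were not tested. Their mean signal over the 6 arrays was at most 15.9, and single values ranged widely. SRSF6 held the extremes: Ssc.9241.2.A1_a_at read 34.8, 5.00 and 12.1 on adult and 2.20, 1.25 and 0.619 on prepubertal arrays, while Ssc.7881.1.A1_at read 2.77, 1.71 and 8.46 on adult and 12.7, 9.72 and 12.3 on prepubertal arrays. Neither pair of groups overlapped, and they lay in opposite directions. The annotation gives Ssc.9241.2.A1_a_at and the tested Ssc.9241.2.A1_at the same source sequence, and their log2 differences were −0.84 and −0.14. The first of these depends on the added constant, with −2.64 at a constant of 1 and −0.30 at 64, and on adult replicate 1, without which it was −0.49. The other 6, 1 of SRSF1, 1 of SRSF6, 2 of SRSF10 and 2 of SRSF11, had log2 differences between −0.01 and 0.28, with overlapping groups as deposited.

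**Figure D4:**
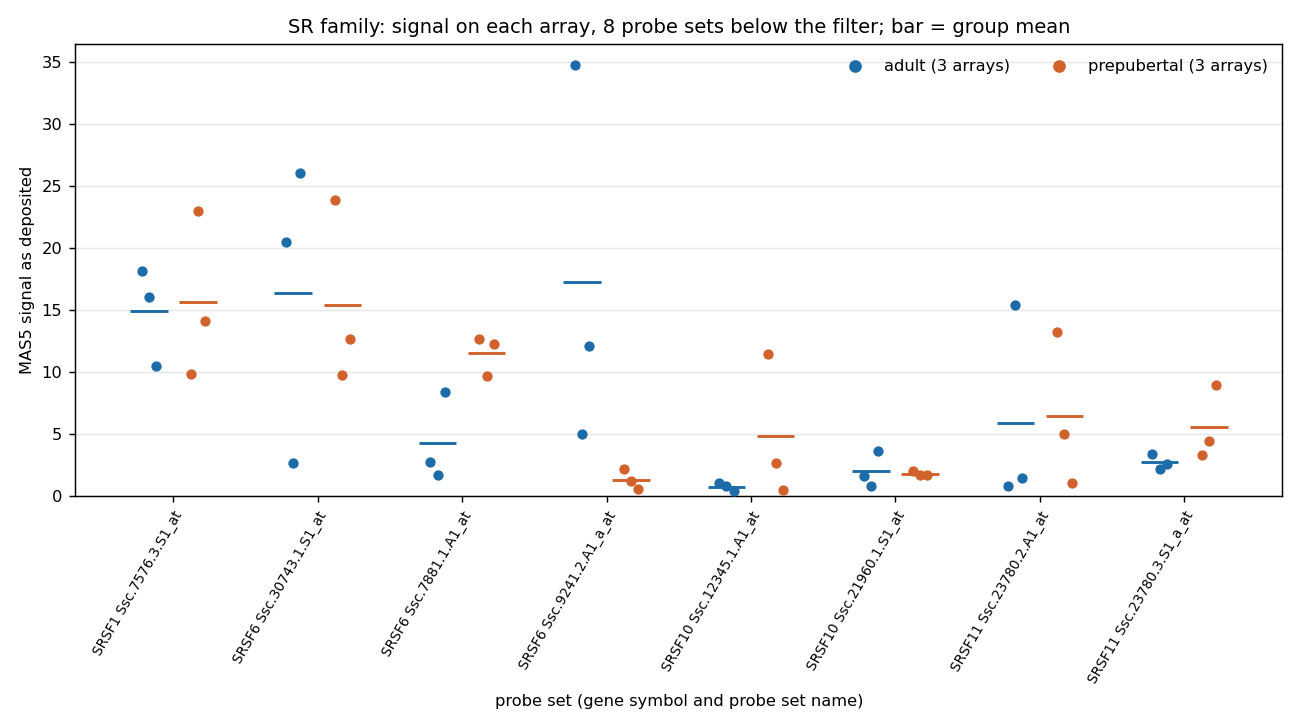
MAS5 signal as deposited (linear axis from 0) for the 8 SR family probe sets below the filter, with 1 point for each array and a bar at the group mean of 3. For SRSF6 Ssc.9241.2.A1_a_at the adult arrays, from 5.00 to 34.8, lie above the prepubertal ones, and for SRSF6 Ssc.7881.1.A1_at they lie below.

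Genes that act on or beside SR proteins were compared next, in 6 lists drawn up from their known roles. The lists held 110 tested probe sets of 78 genes, and 0 passed the limma threshold (adjusted p under 0.05), as deposited or once normalized, where 0.475% and 0.117% of all tested probe sets did. With an unadjusted p below 0.05, limma gave 1 higher and 16 lower as deposited, 15.5% of the 110 against 14.7% of all tested probe sets, and 4 higher and 8 lower once normalized, 10.9% against 10.8%.

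Among kinases, phosphatases and importers of SR proteins (11 tested probe sets, median log2 difference −0.10 as deposited and 0.06 once normalized), those with the smallest p were 2 of the CLK kinases that phosphorylate the arginine-serine tail. CLK3 read 351, 243 and 298 on adult and 232, 129 and 151 on prepubertal arrays, so that every prepubertal array was the lower (log2 difference −0.77 ± 0.25, limma adjusted p = 0.18; −0.52 and 0.29 once normalized). CLK1 read 61.0, 66.4 and 62.1 on adult and 46.4, 38.9 and 42.1 on prepubertal arrays (−0.44 ± 0.23, limma adjusted p = 0.376; −0.29 once normalized). The other CLK kinases were added after their values were seen. CLK2 was lower too, but hardly so once normalized, with −0.29 ± 0.22 as deposited and −0.02 once normalized. CLK4 went the other way, with 0.20 ± 0.24 and 0.35, and its groups overlapped only as deposited.

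The SR-related proteins, which have arginine-serine regions without being classical SR proteins, had a median of −0.20 and 0.01 over 35 tested probe sets. RNPS1, a splicing activator that joins the exon junction complex, read 5286, 3634 and 6552 on adult and 3696, 3225 and 2151 on prepubertal arrays, with overlap (−0.76 ± 0.21, limma adjusted p = 0.103; −0.51 once normalized). U2SURP, a protein of the U2 particle, had −0.67 ± 0.21 (limma adjusted p = 0.162; −0.39) and a further, dimmer probe set −0.47 (−0.33).

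SR genes make versions of their own mRNAs that nonsense-mediated decay removes, so the list of that pathway and of the exon junction complex was included. It had the lowest median of the 6 as deposited, −0.32 over 15 tested probe sets, and −0.04 once normalized. UPF3A, a decay factor that binds the exon junction complex, read 2830, 1846 and 1640 on adult and 1316, 1107 and 1043 on prepubertal arrays, without overlap (−0.82 ± 0.21, limma adjusted p = 0.0814; −0.54 and 0.192 once normalized). Of its relative UPF3B, 1 probe set had −0.87 ± 0.24 as deposited (limma adjusted p = 0.108) and −0.66 once normalized. Another with the same source sequence had −0.79 and −0.63, and neither of these had overlapping groups in either setting. The other UPF3B probe sets had −0.32, −0.22 and 0.31 as deposited and −0.07, 0.01 and 0.42 once normalized. The one at 0.31 was dim, at 29.3 in adult and 41.4 in prepubertal eggs, with overlap.

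The partners of splice site recognition (12 tested, median −0.09 and 0.08) and the mRNA export genes (10 tested, median −0.30 and −0.02) are given next. SF3B1 and SF3A3, both of the U2 particle, had −0.35 ± 0.21 and −0.26 ± 0.18 as deposited and −0.07 and 0.02 once normalized. ZC3H11A, an export protein, had −0.61 ± 0.23 (−0.41), without overlap, and RAE1, an mRNA export factor at the nuclear pore, −0.36 ± 0.17 (−0.09). The hnRNP proteins, which often oppose SR proteins at splice sites, had medians of −0.25 and −0.03 over 27 tested probe sets. HNRNPK had −0.57 ± 0.24 (−0.30) and HNRNPDL −0.52 ± 0.21 (−0.24), while a further HNRNPDL probe set had 0.14 (0.38). Once normalized, the hnRNP probe sets with an unadjusted limma p below 0.05 were 4 higher and 0 lower of 27. Of all 12000 tested probe sets, 607 were higher and 695 lower at that p. In that setting, 4 of the 27 were without overlap on the higher side, against 7.54% of all tested probe sets. These were the same 4, and a low p favours a lack of overlap, so this is no separate result. The 4 are named after their values were seen: that HNRNPDL probe set, HNRNPC at 0.49 (0.20 as deposited) and a pair of HNRNPD, an mRNA stability factor, at 0.74 (0.47) and 0.44 (0.18). Their limma adjusted p values, once normalized, were 0.0607 to 0.253. None of these genes passed (limma adjusted p 0.236 to 0.499 as deposited for the probe sets with the smallest p).

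**Figure D5:**
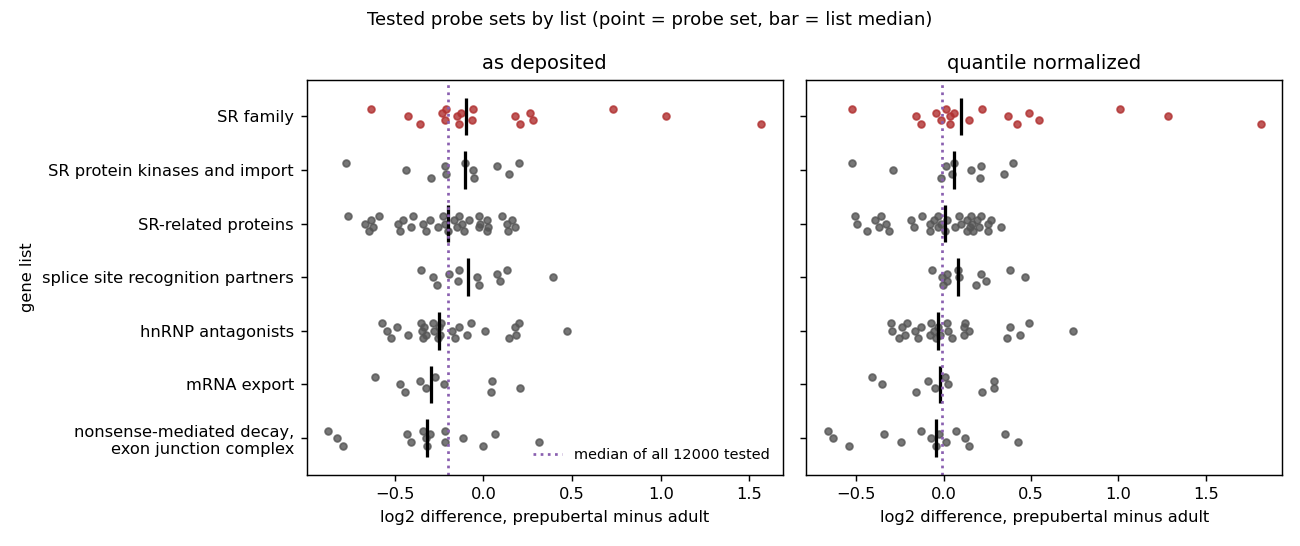
Log2 difference, prepubertal minus adult, of each tested probe set of the SR family (red) and of the 6 lists of genes that act on or beside SR proteins (grey), as deposited (left) and quantile normalized (right), with a bar at each list's median and a dotted line at the median of all 12000. The SR family spans −0.63 to 1.56 as deposited, and the points of the other lists lie between −0.87 and 0.47.

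The genes whose values over the 6 arrays were most like those of SRSF4 and SRSF7, as deposited, were found by Pearson's correlation across tested genes outside the family, as a description only, since the 6 arrays share levels and groups. For SRSF4 these were RBBP6, a ubiquitin ligase (r = 0.98), a probe set of SET, a histone chaperone (0.98), and NCK2, a signalling adaptor (0.96). For SRSF7 they were another probe set of SET (0.98), CACNB3, a calcium channel subunit (0.94), and IL10RB, a cytokine receptor chain (0.93). RBBP6, NCK2, CACNB3 and IL10RB were near background in adult eggs, with mean signals of 16.9, 17.2, 7.34 and 16.5, and their log2 differences of 0.46, 0.50, 0.94 and 0.81 depend on the added constant. For CACNB3 and IL10RB the adult mean, on the log2 scale of the filter, was below the filter. Both were thus tested only through their prepubertal values, so their likeness to SRSF7 supports nothing. The SET probe sets were bright, at 5309 and 1277 in adult and 6564 and 1858 in prepubertal eggs, with log2 differences of 0.30 and 0.54 before normalization and of 0.47 and 0.82 after it. The second of these, the one most like SRSF7, passed the whole-table threshold once normalized (limma adjusted p = 0.0375) and not as deposited (0.189). It was picked by its likeness to a member chosen for its group difference on these same arrays, so that pass supports nothing.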

How the data were processed

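The deposited signal values are linear MAS5 output with 1 value for each probe set on each array, as MAS5 is the tool in the submitters' processing notes. Neither its version nor its scaling is stated there. All 6 value columns matched a sample, with 0 left over. Of 24123 probe sets, 124 controls were left out. Symbols came from the platform annotation and were updated by Entrez identifier through RefSeq's gene table. No sequences or coordinates are given. Signals of different probe sets were set side by side only to check markers as bright or dim, which is not a comparison of mRNA amounts.

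After adding 16 and taking log2, probe sets at or above the median mean (12000) were fitted with limma 3.58.1 in R 4.3.3 (lmFit, eBayes with trend, prepubertal minus adult, 2-sided, Benjamini-Hochberg over all 12000, threshold 0.05). Quantile normalization of the log2 values is given beside it. The number of arrays limits the precision. Members, lists and tests were chosen with earlier results of these data known. Named genes are every member probe set, list members past the threshold, the 2 per list with the smallest p, the 2 brightest per marker list, and the 3 genes most like each SRSF4 or SRSF7 probe set. Further oocyte, cumulus and granulosa markers were named after their values were seen. On simulated data with 12000 probe sets the fit recovered 30.5% of probe sets changed by 1 on the log2 scale and 69% of those changed by 1.5, with 3.91% of calls false. The simulated noise was independent between probe sets and held no shifts of whole arrays, unlike the real data. These shares therefore do not carry over to the real calls. Alternatives changed the constant, the filter, the normalization and the variance model, weighted the arrays, took the replicate number as a block, or left out each array in turn.

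Same-numbered adult and prepubertal arrays did not deviate together beyond 0.1 in every pair (correlations 0.029 to 0.11), so the numbers were not taken as pairs.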

Additional observations from a re-analysis of the deposited data

How the results depend on the processing

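The SRSF4 and SRSF7 calls did not hold in all alternatives run, while both differences kept their direction. With groups that do not overlap, that direction was fixed in advance for most alternatives. No change of constant, filter, variance model or array weights, and no left-out array, could have reversed it. The 2 family calls became 1 (SRSF4 alone) with an added constant of 1 and with median centring, and 0 without the filter and without the intensity trend. Leaving out each array gave 0 to 3 family calls as deposited and 0 to 4 after quantile normalization. Of all tested probe sets, 57 passed, against 15 with a constant of 1, 1 without the filter, 173 in the upper quartile, 14 after quantile normalization (26 with a constant of 64), 7 with median centring, 20 with trimmed-mean scaling, 1 without the trend and 1259 with array weights. Without 1 array the count was 3 to 658, and 0 to 202 after quantile normalization (it was 6 without prepubertal replicate 2, 202 without prepubertal replicate 1). In the lists of genes that act beside SR proteins 0 calls became 3 in the upper quartile (RNPS1, UPF3A and UPF3B), 11 with array weights, all lower, 0 to 8 without 1 array and 0 to 2 so after quantile normalization. With the replicate number as a block, which the arrays do not bear out as a pairing, there were 918 calls over the table (32 after quantile normalization), 2 in the family in either setting and 12 in those lists (0 after quantile normalization). The family's median log2 difference, −0.10, was 0.13 with trimmed-mean scaling, 0.19 with 1 probe set per gene, −0.17 to 0.01 without 1 array and 0.08 to 0.19 so after quantile normalization, namely 0.14 without adult replicate 2, 0.18 without adult replicate 3, 0.14 without prepubertal replicate 1 and 0.19 without prepubertal replicate 2.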

Other observations

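SRSF12, a late-named relative of SRSF10 outside the 10 genes above, and the TRA2 proteins, which are splicing activators with arginine-serine regions at both ends, were measured too and were chosen for mention after their values were seen. SRSF12 read 74.9, 66.0 and 62.4 on adult and 90.6, 77.0 and 66.2 on prepubertal arrays, with overlapping groups and a log2 difference of 0.16 ± 0.23 (limma adjusted p = 0.771). After quantile normalization it was 0.33 and the groups did not overlap (limma adjusted p = 0.538). TRA2A had −0.12 ± 0.20 (limma adjusted p = 0.804), which turned to 0.16 after quantile normalization. TRA2B, whose older symbol SFRS10 is easily taken for SRSF10, was brightest at 4157 in adult and 3620 in prepubertal eggs (−0.20 ± 0.15, limma adjusted p = 0.544; 0.06 after quantile normalization). A further TRA2B probe set (Ssc.7281.2.A1_at) read 549, 422 and 425 on adult and 400.3, 257 and 242 on prepubertal arrays, without overlap (−0.63 ± 0.24, limma adjusted p = 0.241; −0.36 after quantile normalization, where the groups overlapped).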
